A study of Homo sapiens with 2 samples.

Results

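The genes described here are 10 chaperone genes of the cytosol and the collagen-making compartment, HSPA1A, HSPA1B, HSPA4, HSPA4L, HSPA6, HSPA8, HSPH1, HSPB1, BAG3 and SERPINH1, in HEK293T cells that expressed the homeobox transcription factor IRX1. They were picked by gene symbol and measured by 21 of the 54675 probe sets of the array, and all 21 passed the filter on dim signals. HSPA1A and HSPA1B are near-identical neighbours that share every one of their probe sets, so they are counted as 1 unit and the group as 9 of 12195 genes kept. The group was chosen by its signals on these same 2 arrays, so its levels and ratios are a description and no test was made.

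Chaperones hold unfolded proteins and help them to fold. The HSP70 proteins bind and release client proteins in a cycle driven by ATP, the HSP110 proteins reload them with ATP, and small heat shock proteins keep denatured proteins from clumping without using ATP. Many of these genes are switched on by HSF1, a transcription factor that is held inactive in unstressed cells and binds heat shock elements, repeats of the letters GAA in alternating orientation, when unfolded proteins accumulate. HSPA6 and the HSPA1A and HSPA1B pair are known as stress-inducible members, while HSPA8 is made in nearly all cells at all times.

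HEK293T, a line derived from human embryonic kidney that makes a viral large T antigen, received by means of polyethylenimine, a polymer that brings DNA into cells, either the plasmid pcDNA3.1-GFP (GFP control) or pcDNA3.1-IRX1::GFP, which encodes IRX1 joined to GFP, and GFP-positive cells were sorted 48 h later. This is transient expression from a plasmid in a line that is not a blood cell, although the question behind the study is one of leukemia. Each condition was measured here on 1 array, and whether an array stands for a single culture or a pool is not settled, so no value has an error between cultures or a p-value. Both conditions were transfected and sorted, but whether efficiency, plasmid dose or handling were matched is not stated. A difference in these, or a response to the fusion protein as such, cannot be told apart from a response to IRX1. The 1 probe set of IRX1 itself was at 33.14 in the GFP control and 57.02 in the IRX1::GFP array, both under background, so it does not check the labels.

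The arrays gave MAS5 signals, linear intensities whose mean without the lowest and highest 2% was 1000 on both arrays. Log2 ratios are those of the IRX1::GFP array over the control array and positive where IRX1::GFP was higher. A gene was kept when the mean of its 2 signals reached 183, the 50th percentile, was represented by its brightest probe set, and was called at 2-fold. Background was set from 107 probe sets of olfactory receptors at their 90th percentile, 143 on the control array and 179 on the other, and all 21 probe sets were above it on both arrays. Different probe sets of one gene differed by an SD of 0.49 in log2 ratio over 5932 genes. This SD serves here as a yardstick for disagreement between probe sets, and it does not measure variation between cultures or arrays. The median log2 ratio of all probe sets was 0.11, a shift to be kept in mind for small differences. Of the markers listed for HEK293T, NEFL, NEFM, VIM, KRT8 and KRT18 were above background on both arrays, LHX1 and PAX2 only with IRX1::GFP, the blood cell marker PTPRC on neither, CD14 on both, and CD3E and the liver marker ALB only in the GFP control. RNA quality differed in the control probe sets of ACTB and GAPDH, whose log2 ratios ran from 0.21 to 1.24. For ACTB the 3-prime signal exceeded the 5-prime one 3.23-fold on the control array and 1.64-fold on the IRX1::GFP array, and the part of this in the ratios below was not tested. In sorted bulk cells, fewer cells that express a gene and less RNA per cell cannot be told apart.

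Of the 9 chaperone units, 4 had at least 2-fold more signal with IRX1::GFP (HSPA6, HSPA1A/HSPA1B, HSPB1 and SERPINH1), 1 was at least 2-fold lower (HSPA4L), and HSPA8, BAG3, HSPH1 and HSPA4 were within 2-fold. Over all 12195 genes kept, 10.4% were higher by at least that much (1268 genes) and 5.34% lower (651 genes), and after median centring these were 1047 and 850. At least 8-fold higher were 3 of the 9 units, HSPA6, HSPB1 and SERPINH1, against 0.459% of all genes kept. The median log2 ratio of the 9 units was 0.31 and that of all genes kept 0.07. This median is the value of HSPA8, whose brightest probe set could not exceed 1.49-fold without passing the highest array signal. HSPA1A/HSPA1B stood in these counts with its brightest probe set, 2.01-fold higher, while its others were 9.64-fold and 130.5-fold higher. By probe set, 7 of 21 were at least 2-fold higher and 2 lower, against 9.65% and 5.81% of the 27307 probe sets kept. Since these signals chose the group, nothing is read from the counts.

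**Figure D1:**
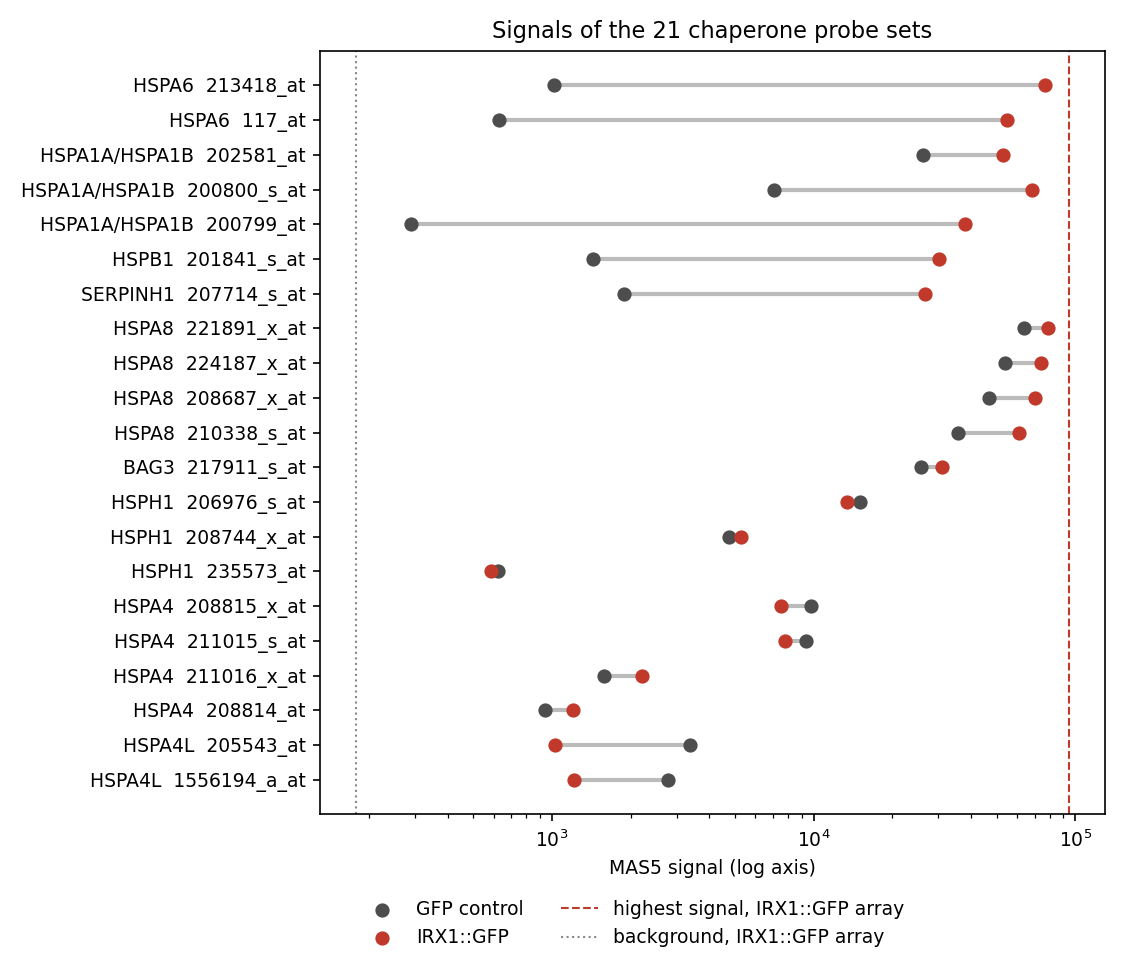
Each row is 1 of the 21 chaperone probe sets, with its MAS5 signal on a log axis (x) on the GFP control array (grey) and the IRX1::GFP array (red), 1 array per condition and so without error bars. The rows of HSPA6, HSPA1A/HSPA1B, HSPB1 and SERPINH1 stretch to the right, several of them close to the highest signal of the IRX1::GFP array, 94629 (dashed line), and the dotted line is background, while the 2 rows of HSPA4L run to the left.

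Of the inducible HSP70 genes, HSPA6 had the largest log2 ratio of the 9 units by brightest probe set. It lies on chromosome 1 (161524540 to 161526894, GRCh38.p14) and had 2 probe sets. The brighter, 213418_at, gave 1021 in GFP control cells and 76345 in IRX1::GFP cells, 74.7-fold higher, a log2 ratio of 6.22. The dimmer, 117_at, read 626 and 54760, 87.4-fold higher, a log2 ratio of 6.45. The probe sets therefore differed in log2 ratio by 0.23, less than the spread between probe sets of one gene. By log2 ratio HSPA6 ranked 4 among the 12195 genes kept. The transcribed pseudogene HSPA7, a near copy on the same chromosome (161606172 to 161608550), was named by no probe set in the annotation used, and signal from it in the HSPA6 probe sets was not tested.

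HSPA1A and HSPA1B, which encode the same major inducible HSP70 protein, lie next to each other on chromosome 6 (31815543 to 31817942 and 31827738 to 31830254). Their 3 probe sets were all higher with IRX1::GFP, but by very different amounts. Probe set 200799_at gave 291 in GFP control cells and 37949 in IRX1::GFP cells, 130.5-fold higher, a log2 ratio of 7.03 that ranked 3 among all 27307 probe sets kept. Probe set 200800_s_at, which the annotation gives also to the neighbour HSPA1L, read 7056 and 68019, 9.64-fold higher. Probe set 202581_at read 26299 and 52953, 2.01-fold higher. It is the last of these, the brightest by mean signal, that stands for the pair in the count above, and it passed 2-fold by so little that it was within 2-fold after median centring (log2 ratio 0.90), quantile normalization (0.85) and loess (0.94). The other 2 probe sets kept log2 ratios of at least 6.88 and 3.16 under these scalings. The range of log2 ratios over the 3 probe sets was 6.02, far above the SD of 0.49, so the size of the difference for HSPA1A and HSPA1B is not settled by these arrays, while its direction was the same on all 3. The mean of the 3 log2 ratios was 3.77. The share of each signal that comes from either gene, or from another HSP70 transcript, was not tested.

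The start regions of genes at least 2-fold higher are shown because heat shock elements are the feature by which HSF1 targets are known. These genes were picked by their ratios, and the members without a match, BAG3, HSPH1 and HSPA4, are not printed. HSPA8 and HSPA4L, which were not at least 2-fold higher, also held matches, given further below. RefSeq sequences of the 250 bases before the annotated start (GRCh38.p14) are printed 5′ to 3′, with capitals for letters that match a heat shock element, either 2 units (TTCNNGAA, tail to tail, or GAANNTTC, head to head) or 3 units (either form extended by 2 free bases and a further unit, which contains both forms in overlap).
HSPA6 (chr1:161524290-161524539, plus strand): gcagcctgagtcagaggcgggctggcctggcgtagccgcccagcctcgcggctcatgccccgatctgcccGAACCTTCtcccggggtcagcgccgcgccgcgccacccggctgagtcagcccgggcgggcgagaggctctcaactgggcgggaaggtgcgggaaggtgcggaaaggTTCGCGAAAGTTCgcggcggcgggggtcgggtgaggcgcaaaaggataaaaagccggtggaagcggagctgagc
HSPA1A (chr6:31815293-31815542, plus strand): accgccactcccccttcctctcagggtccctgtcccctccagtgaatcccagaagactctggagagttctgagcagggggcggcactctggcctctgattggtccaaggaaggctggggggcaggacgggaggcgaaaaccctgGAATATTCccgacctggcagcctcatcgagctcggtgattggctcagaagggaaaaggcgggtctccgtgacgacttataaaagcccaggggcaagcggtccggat
HSPA1B (chr6:31827488-31827737, plus strand): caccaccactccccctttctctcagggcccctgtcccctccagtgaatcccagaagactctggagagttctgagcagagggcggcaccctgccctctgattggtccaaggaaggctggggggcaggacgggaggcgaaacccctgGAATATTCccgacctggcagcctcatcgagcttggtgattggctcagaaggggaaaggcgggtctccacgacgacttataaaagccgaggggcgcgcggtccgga
HSPB1 (chr7:76302423-76302672, plus strand): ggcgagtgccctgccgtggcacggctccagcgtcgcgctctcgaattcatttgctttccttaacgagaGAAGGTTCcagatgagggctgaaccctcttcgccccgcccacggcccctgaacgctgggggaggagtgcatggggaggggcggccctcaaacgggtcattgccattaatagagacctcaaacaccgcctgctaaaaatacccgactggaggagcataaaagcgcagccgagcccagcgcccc
SERPINH1 (chr11:75562003-75562252, plus strand): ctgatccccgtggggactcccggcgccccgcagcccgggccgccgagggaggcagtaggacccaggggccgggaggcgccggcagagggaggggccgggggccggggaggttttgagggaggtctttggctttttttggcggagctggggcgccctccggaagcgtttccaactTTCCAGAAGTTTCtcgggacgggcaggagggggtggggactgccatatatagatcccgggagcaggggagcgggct

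Both strands were searched from 250 bases before to 50 after the start in 35116 windows of all genes. Counted from the start, HSPA6 held a 3-unit match at -74 and a further head-to-head match at -180, and SERPINH1 held a 3-unit match at -76 of the first of its 2 annotated starts. Such a 3-unit match was found in 0.49% of all windows. HSPA1A and HSPA1B each held 1 head-to-head match, beginning at -106 and -105, and HSPB1 held 1 at -182. A 2-unit match of either form was found in 13.5% of all windows. The 250 bases of HSPA1A and HSPA1B were 93.6% identical, and each held 2 CCAAT boxes (in 34.6% of all windows) and 1 TATAAA (in 11.5%). These are matches of letters, not measured binding.

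HSPB1 and SERPINH1 followed HSPA6. HSPB1, the small heat shock protein HSP27, lies on chromosome 7 (76302673 to 76304292). Its only probe set, 201841_s_at, gave 1442 in GFP control cells and 30242 in IRX1::GFP cells, 20.98-fold higher, a log2 ratio of 4.39 that ranked 21 among the genes kept. SERPINH1, or HSP47, is a chaperone of the endoplasmic reticulum that binds collagen, and it lies on chromosome 11 (75562253 to 75572783). Its only probe set, 207714_s_at, read 1892 and 26578, 14.05-fold higher, a log2 ratio of 3.81 and rank 32. Each of these genes rests on 1 probe set, so no second set checks it. Their log2 ratios lay between 4.28 and 4.43 and between 3.70 and 3.84 over the deposited, centred, quantile and loess scales.

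Outside the group, the genes kept with log2 ratios nearest to that of HSPA6, by the size of the difference over the 2 arrays and with both signals above background, were LGALS1 (4.71), EGR3 (3.75) and GADD45B (3.63). These values describe HSPA6 by its brightest probe set, and within the group 200799_at of HSPA1A/HSPA1B, with 7.03, exceeded both HSPA6 probe sets.

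HSPA8, the constitutive HSP70, was among the brightest transcripts on both arrays. It lies on chromosome 11 (123057489 to 123062462), and its 4 probe sets are also annotated to SNORD14C and SNORD14D, small nucleolar RNA genes that lie inside it. Probe set 221891_x_at gave 63375 in GFP control cells and 78554 in IRX1::GFP cells, 1.24-fold higher. Probe set 224187_x_at read 53989 and 73913, 1.37-fold higher, and 208687_x_at 46919 and 69828, 1.49-fold higher. The dimmest, 210338_s_at, read 35736 and 60968, 1.71-fold higher. All 4 were higher with IRX1::GFP and within 2-fold, and the lower a probe set read in the GFP control, the larger was its ratio. The control signal is the divisor of that ratio, so nothing is read from this order. The window of the HSPA8 start at 123062136, which lies inside the annotated span of the gene, held 2 of the 3-unit matches, shown here for comparison with HSPA6 and SERPINH1.
HSPA8 at -230 (chr11:123062345-123062374, minus strand): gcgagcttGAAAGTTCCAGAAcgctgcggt
HSPA8 at -55 (chr11:123062170-123062199, minus strand): cgggccccTTCTGGAAGGTTCtaagatagg

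Several of these signals lay near the top of the array. The highest signal was 91566 on the GFP control array and 94629 on the IRX1::GFP array, and 8 of the 21 chaperone probe sets exceeded 50% of it with IRX1::GFP, against 3 in the GFP control. On the IRX1::GFP array 291 probe sets in all exceeded 50%. For 221891_x_at of HSPA8 the highest signal was only 1.49 times the control signal, and for 224187_x_at 1.75 times, so neither could have reached 2-fold without passing every other probe set. The corresponding limit was 2.02-fold and 2.65-fold for the other HSPA8 probe sets, 3.60-fold for 202581_at of HSPA1A/HSPA1B and 3.68-fold for BAG3. HSPA6 itself reached 76345, or 80.7% of the highest signal, and its log2 ratio of 6.22 compares with 6.53 at that limit. Expressed as a share of the log2 distance from the control signal to the top of the array, the 4 HSPA8 probe sets lay at 53.6% to 56.7%, 202581_at at 54.7%, the other HSPA1A/HSPA1B probe sets at 87.3% and 84.2%, HSPB1 at 72.7%, SERPINH1 at 67.5% and BAG3 at 14.3%. Whether the array response was compressed in this range was not tested.

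**Figure D2:**
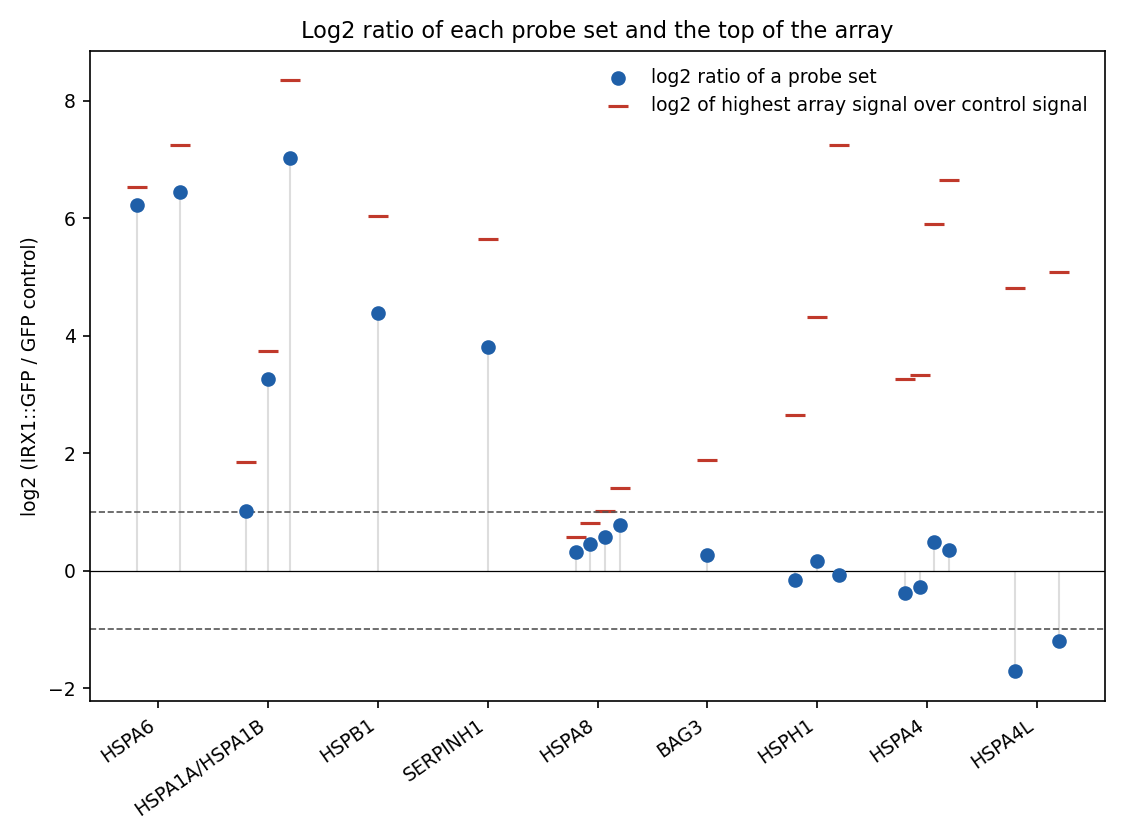
Each point is 1 probe set at its log2 ratio, IRX1::GFP array over control array (y), grouped by gene (x) with 1 array per condition, red bars the log2 ratio that each would have had at the highest signal of the IRX1::GFP array, and dashed lines 2-fold. The points of HSPA8 and of 202581_at sit under low bars, whereas HSPH1, HSPA4 and HSPA4L lie far below theirs.

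Few probe sets this bright differed by 2-fold. In the GFP control 583 probe sets reached the signal of BAG3, 25683, and their median log2 ratio was 0.10. Only 2 of these 583 (0.343%) were higher by at least 2-fold in IRX1::GFP cells, 202581_at of HSPA1A/HSPA1B and 211968_s_at of HSP90AA1, the stress-inducible HSP90 chaperone, which read 26989 and 65436 and was named after its value was seen. Another 11 were lower by at least 2-fold. The bright chaperone probe sets are among the 583 and were chosen by these signals, so this is a description. The cut was made on the control signal, over which the ratio is taken. Increases and decreases were therefore not equally open to these probe sets, and nothing is read from their counts. After median centring, quantile normalization and loess, 202581_at was within 2-fold. The other 3 probe sets of HSP90AA1 read log2 ratios of 0.16 to 0.37.

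BAG3 joins HSP70 to small heat shock proteins and to autophagy, and is known as an HSF1 target. It lies on chromosome 10 (119651380 to 119677819). Its only probe set, 217911_s_at, gave 25683 in GFP control cells and 30961 in IRX1::GFP cells, 1.21-fold higher, a log2 ratio of 0.27 that is below the SD of 0.49 between probe sets. The highest array signal was 3.68 times its control signal, about as for 202581_at, and whether the array response was compressed for BAG3 was not tested.

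The HSP110 genes HSPH1 and HSPA4 were within 2-fold on each of their probe sets. HSPH1, the HSP110 gene that heat shock is known to induce, lies on chromosome 13 (31134973 to 31162388). Its probe set 206976_s_at gave 15015 in GFP control cells and 13397 in IRX1::GFP cells, 208744_x_at read 4754 and 5306, and 235573_at read 621 and 588. Their log2 ratios of -0.16, 0.16 and -0.08 differ in sign and are all below the spread between probe sets of one gene. The highest array signal was at least 6.30 times each control signal. HSPA4, a constitutive HSP110 gene on chromosome 5 (133052013 to 133106449), had 4 probe sets that also split by sign. The brighter ones read 9812 and 7527 (208815_x_at) and 9399 and 7788 (211015_s_at), 1.30-fold and 1.21-fold lower. The dimmer ones read 1581 and 2206 (211016_x_at) and 941 and 1203 (208814_at), 1.39-fold and 1.28-fold higher. With a range of 0.86 in log2 ratio around a mean of 0.05, HSPA4 has no direction on these arrays.

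HSPA4L, a relative of HSPA4 on chromosome 4 (127781796 to 127840733), was the only member at least 2-fold lower. Probe set 205543_at gave 3362 in GFP control cells and 1025 in IRX1::GFP cells, 3.28-fold lower. Probe set 1556194_a_at read 2793 and 1219, 2.29-fold lower. Both had the same direction, at log2 ratios of -1.71 and -1.20, and under median centring, quantile normalization and loess both stayed at least 2-fold lower. Of its 3 annotated starts, the second held 1 tail-to-tail match, at -170, and no heat shock element match was found at the others. Of the genes within 2-fold, HSPA8 held 2 of the 3-unit matches, the most of any member, while BAG3, HSPH1 and HSPA4 held no heat shock element match, which says only that these letters are not in their windows.

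Another 33 genes of the HSF1 network were listed from general knowledge. Of these, 27 were kept, 9 of them higher by at least 2-fold and 1 lower, beside 10.4% and 5.34% of all genes kept, and their median log2 ratio was 0.30 beside 0.07. The list was made with these data known, and no test was made on it. The most different were DNAJB1, an HSP40 that hands clients to HSP70, CRYAB, a small heat shock protein, DEDD2 and DNAJB4. DNAJB1 gave 9746 in GFP control cells and 61397 in IRX1::GFP cells on 200666_s_at, 6.30-fold higher, and 4365 and 55944 on 200664_s_at, 12.8-fold higher. CRYAB read 172 and 953, 5.55-fold higher, but its control signal was little above the background of 143, so the size is uncertain. That control signal was also below the filter level, so CRYAB could be kept only by being higher with IRX1::GFP. DEDD2 read 3427 and 12350, 3.60-fold higher. DNAJB4, like HSPA4L, had 2 probe sets and was lower on each, at 3002 and 916 on the brighter, 3.28-fold. The remaining genes at least 2-fold higher were FKBP4, STUB1, P4HA2, HSPE1, IER5 and STIP1. They include cochaperones of HSP90 (FKBP4 and STIP1), the ubiquitin ligase that works with HSP70 (STUB1) and the mitochondrial cochaperonin (HSPE1). STUB1 was 3.17-fold higher on its brightest probe set, but 1.51-fold and 1.11-fold on its others. HSP90AB1, another HSP90 gene, was not counted at 1.63-fold higher on its brightest probe set, but its others were 3.01-fold and 3.25-fold higher. In the lower direction, CHORDC1 was at 1.71-fold on its brightest probe set and 2.87-fold on its other. Both were named after their values were seen. IER5 and STIP1 passed narrowly, at 2.08-fold and 2.01-fold, and the other probe set of STIP1 was 3.62-fold higher. After median centring the count of genes at least 2-fold higher was 7.

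HSF1 itself was dim. Its 2 probe sets were at 77.2 and 51.8 in the GFP control, under background. With IRX1::GFP they were at 287 and 230, above the background of 179 on that array, and neither probe set passed the filter. These signals were 2.00 and 1.60 times the control background of 143, which is a ratio across arrays and no firm minimum. HSF2 was not analysed here. An mRNA level says nothing of whether HSF1 protein was active, which these arrays did not measure.

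Relatives of the chaperones outside the group differed less than HSPA6. Of 8 other HSP70 and HSP110 genes kept, 2 were at least 2-fold higher and 1 lower, again beside 10.4% and 5.34% of all genes kept, and with so few genes nothing is read from these counts or the next. HSPA2, known for its role in the testis, gave 637 in GFP control cells and 2087 in IRX1::GFP cells, 3.28-fold higher. HSPA1L read 177, also little above the background of 143, and 379, 2.14-fold higher. It neighbours HSPA1A and shares 200800_s_at with the pair. HSPA13 read 12437 and 5450, 2.28-fold lower. Of the small heat shock proteins, only 3 others were kept, and 2 of them, CRYAB and HSPB9, were at least 2-fold higher. HSPB9 read 94.7, under background, and 453, which is 3.16 times the control background of 143, so the size is uncertain. The control signals of HSPA1L, CRYAB and HSPB9 were below the filter level, which the mean of the 2 signals had to reach. These genes could be kept only by being higher with IRX1::GFP, so their direction was fixed by the filter and is no result. None of 5 other BAG genes kept was beyond 2-fold on its brightest probe set, with a median log2 ratio of -0.23 beside the 0.27 of BAG3. They ran from -0.91 (BAG2) to 0.89 (BAG1), and a dimmer probe set of BAG1, 202387_at, read 3128 and 7659, 2.45-fold higher.

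**Figure D3:**
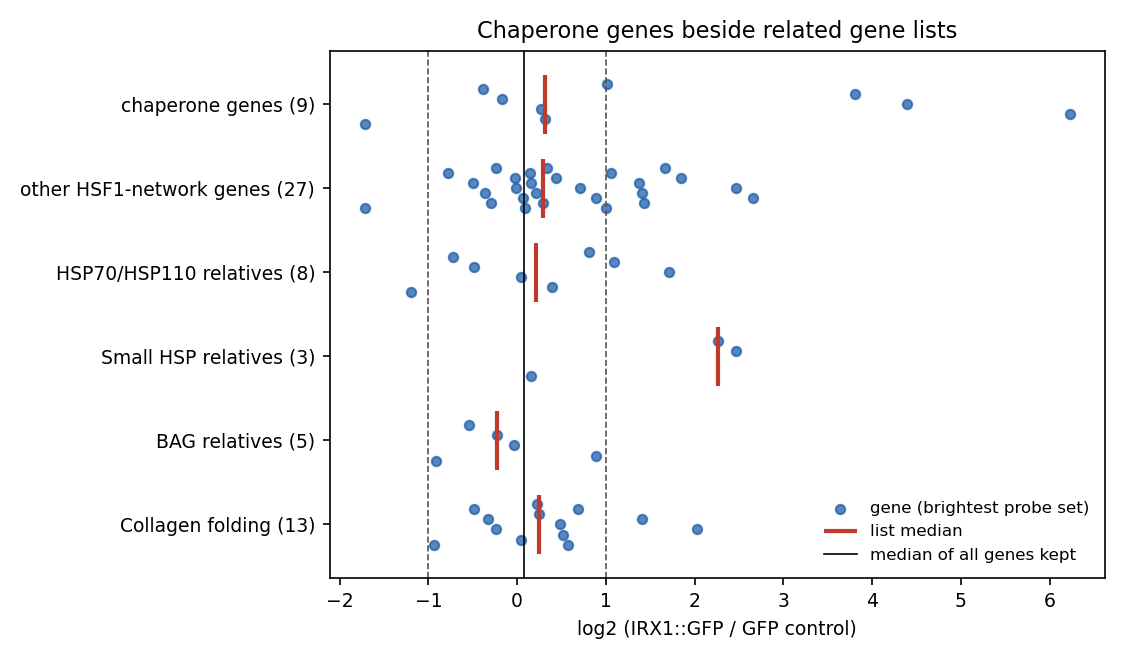
Each point is a gene at the log2 ratio of its brightest probe set, IRX1::GFP array over control array (x), with 1 array per condition, in the chaperone group and the related lists (rows, number kept in brackets), red bars are list medians, dashed lines 2-fold and the black line the median of all genes kept, 0.07. HSPA6, HSPB1 and SERPINH1 lie to the right of every other gene shown, while the medians of most lists stay close to the black line.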

How the data were processed

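Sorted HEK293T cells were profiled on HG-U133 Plus 2.0 arrays, 1 for each condition. The authors deposited an intensity per probe set, a linear signal from MAS5, the tool listed in the submitters' processing notes (version not given in the sources used here). Arrays have no read depth, and their number sets the precision. Probe sets were named from the platform annotation, with symbols updated through gene identifiers of RefSeq GRCh38.p14. Of these, 41091 had 1 symbol, and in values per gene the 1801 with several were used only for HSPA1A/HSPA1B and HSPA8. Counts and ranks over probe sets took in all except controls, also those with several symbols or none. Log2 ratios were taken between the deposited signals, with the filter, background and calls given in the report. No test was made between single arrays. All chaperone genes are named, and of the other lists up to 4 genes with the largest log2 ratios beyond 2-fold, with the remaining genes of a count named after their values were seen. Members and lists were chosen with earlier results of these data known. Promoter sequences came from RefSeq, and all 10 genes were matched. The steps were tested on simulated signals. Alternatives covered scaling, filter, floor and choice of probe set. Python 3.11.15, numpy 2.4.6, pandas 2.3.3, statsmodels 0.14.6 and matplotlib 3.10.9 were used.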

Additional observations from a re-analysis of the deposited data

How the results depend on the processing

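Leaving out an array would have left no ratio. No paired analysis was possible because single arrays were compared without a test. The count of chaperone units at least 2-fold higher was 4, and 3 after median centring, quantile normalization and loess, where HSPA1A/HSPA1B was within 2-fold. With only probe sets whose ID has no suffix letter it was 2, since HSPB1, SERPINH1, HSPA8 and BAG3 have no such probe set and 5 units remained, and the count of other HSF1-network genes was then 5 of 18 kept, against 9 of 27. Between 7 and 11 of these genes were at least 2-fold higher under the other alternatives. The count of lower units was 1 under all alternatives run. Of 50 log2 ratios of the units under alternatives, 48 moved by less than 0.49, 2 moved further and none of the values beyond 2-fold changed sign. The exceptions were HSPA1A/HSPA1B, 3.77 as the mean over its probe sets, and HSPA4, 0.35 with only probe sets without a suffix letter. Without the filter 3457 of all 19777 genes were beyond 2-fold in the higher direction and 1983 in the lower, and there were 514 and 415 of 7680 with a filter at the 75th percentile, against 1268 and 651 of 12195.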

Other observations

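SERPINH1 works on collagen, and most other genes of collagen folding were within 2-fold. Of 13 kept, 2 were beyond 2-fold on their brightest probe set, both higher in IRX1::GFP cells, and the median log2 ratio was 0.25. Over all genes kept 10.4% were at least 2-fold higher, and 2 of 13 is close to that share, so the count is no result about these genes. COL1A1, a chain of type I collagen, gave 631 in GFP control cells and 2571 in IRX1::GFP cells on its brightest probe set, 4.08-fold higher. Of its other probe sets, the only one above background on both arrays gave 352 and 532, 1.51-fold higher, so the size for COL1A1 differs between its probe sets. P4HA2, a subunit of the enzyme that hydroxylates prolines of collagen, gave 1647 and 4359, 2.65-fold higher. The ratio of SERPINH1, 14.05-fold, was larger than that of any of these 13 genes. SERPINH1 rests on 1 probe set and belongs to a group chosen by these same signals, so this is a description.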
